A study of Caenorhabditis elegans with 32 samples.

Results

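The response of wild type (WT) *Caenorhabditis elegans* to excess glucose was measured by mRNA sequencing of whole animals. The 8 libraries of the N2 Bristol strain were taken from 32 libraries of the series by genotype and medium alone: 4 came from animals on nematode growth medium (NGM) and 4 from animals on NGM supplemented with 2% glucose. Both groups were grown at 20 °C on the OP50 strain of *Escherichia coli*, were synchronized with hypochlorite and carry no transgene or mutation. Their stage is labelled as L4/young adult, and how long the animals of the RNA samples stayed on glucose is not given in the sources used here. The other genotypes, each also with 4 libraries on each medium, were *pgph-2 o/e*, with an integrated transgene that overexpresses *pgph-2*, the mutant *hlh-30(tm1978)*, and *pgph-2 o/e; hlh-30(tm1978)*, which carries both. The transgene was introduced into N2 on a plasmid with the region upstream of the gene, together with a plasmid for mCherry in the pharynx.

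In *C. elegans*, sugar that is not burned by glycolysis is stored as glycogen and trehalose or turned into fat, and the intestine does most of this work. The Δ9 desaturases FAT-5, FAT-6 and FAT-7 put the first double bond into saturated fatty acids, and are known to be controlled by nuclear hormone receptors such as NHR-49 and NHR-80 and by SBP-1. Glucose in the medium also raises its osmolarity, to which the animals are known to respond by making glycerol from glycerol-3-phosphate. The enzyme PGPH-2, for which the other genotypes of the study were built, is a glycerol-3-phosphate phosphatase at that last step. Each library is a whole animal sample of many animals, so that fewer cells of a type and less RNA per cell cannot be told apart.

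Total counts per library ranged from 18073309 to 25673318 on NGM and from 18392120 to 20856992 on glucose, and genes of ribosomal RNA took 6.23% to 8.03% of them. Levels are given as CPM, the counts of a gene scaled to the size of its library. Correlations of log2 CPM between libraries ran from 0.969 to 0.984 within NGM and from 0.969 to 0.987 within glucose, and from 0.938 to 0.979 between the media. Glucose replicates 2 and 4 stood apart from the other 6 WT libraries in genes of the germ line and the cuticle. The 66 genes of the sperm list summed to 4368 and 3515 CPM in these replicates, and to 1569 to 2697 CPM in the others. The 21 oocyte genes summed to 1226 and 991 CPM, against 399 to 612 CPM elsewhere. Markers of other tissues differed less between libraries. The 10 intestine genes summed to 7907 to 10401 CPM on NGM and 7288 to 8305 CPM on glucose, the 10 neuron genes to 524 to 611 and 539 to 581 CPM, and the 10 hypodermis genes to 1518 to 2293 and 1587 to 2024 CPM, all with ranges that overlap. The ranges did not overlap for the 10 genes of body wall muscle, at 13259 to 14964 CPM on NGM and 11617 to 13182 CPM on glucose, nor for genes enriched in males, at 42.3 to 48.7 and 35.03 to 40.2 CPM. All CPM values are scaled with the TMM factors of edgeR.

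Of 15271 genes tested with edgeR's quasi-likelihood test, 551 (3.61%) changed on glucose at an adjusted P of 0.05 or less, of which 181 (1.19% of those tested) rose and 370 (2.42%) fell. With a fold change of at least 2 as well, 91 genes (0.596%) were upregulated and 89 (0.583%) downregulated, and 178 of these 180 genes are protein-coding. The median log2 fold change of all genes was 0.0138. All but 1 of the 180 genes had 4 libraries on one medium above the 4 on the other, a pattern that 1996 (13.1%) of all genes tested showed. The counts rested on single libraries. Leaving out glucose replicate 4 left 38 upregulated and 54 downregulated genes, NGM replicate 4 39 and 68, NGM replicate 2 41 and 69, and glucose replicate 2 46 and 63. Without NGM replicate 1, which held the most sperm RNA on NGM, the counts were 288 and 154, and without glucose replicate 1 they were 206 and 116. Of the 180 calls, 173, 102, 120 and 103 were kept without NGM replicates 1 to 4, and 166, 106, 123 and 86 without glucose replicates 1 to 4. In the 8 fits that each left out 1 library, 28 upregulated and 45 downregulated genes kept their call throughout. Without both glucose replicates 2 and 4, which was tried after they were seen to stand apart, 58 of the 180 calls were kept. In all 180 genes, the direction was the same in every fit in which the gene was tested.

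**Figure D1:**
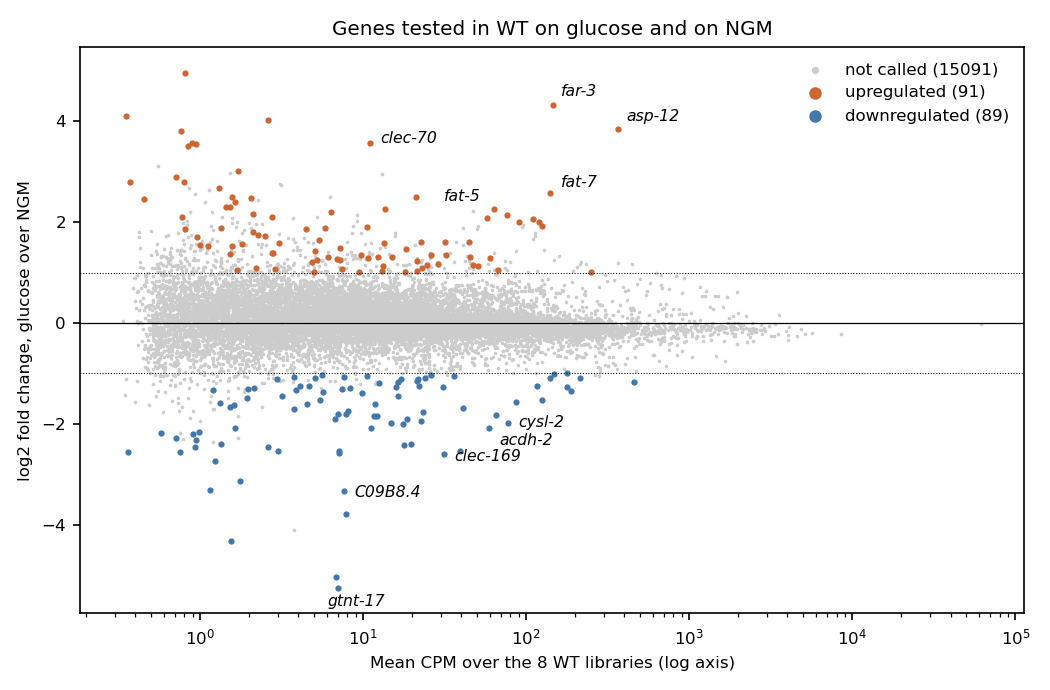
Change of each of the 15271 genes tested in WT on 2% glucose against NGM (vertical axis, log2 fold change, positive is higher on glucose) by its mean level over the 8 libraries (horizontal axis, CPM on a log scale). Coloured points are the 91 upregulated and 89 downregulated genes, and the named genes range from *far-3* at 4.33 to *gtnt-17* at -5.25.

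The highest rise among genes that were expressed at 5 CPM or more was that of *far-3* (F15B9.1, chromosome V), which encodes a protein of the fatty acid and retinol binding family. It was at 18.3, 13.5, 10.6 and 12.4 CPM in NGM replicates 1 to 4 and at 264, 274, 269 and 303 CPM in the corresponding glucose replicates (log2 fold change 4.33, standard error 0.16, adjusted P = 1.39e-06). Every glucose library was thus above every NGM library by a wide margin. Another family member, *far-7*, did not pass the test (-0.13, adjusted P = 0.749). The aspartyl protease gene *asp-12* was at 24.9, 57.0, 45.7 and 63.97 CPM on NGM and 710.1, 615, 728 and 691 CPM on glucose (log2 fold change 3.84, standard error 0.25, adjusted P = 6.85e-05). The C-type lectin gene *clec-70* went from 1.25, 1.27, 2.18 and 2.19 CPM to 24.6, 17.5, 19.5 and 19.4 CPM (log2 fold change 3.56, standard error 0.22, adjusted P = 4.76e-05). Both were higher in all 4 glucose libraries, and all of *far-3*, *asp-12* and *clec-70* kept their call in each of the 8 fits with 1 library left out.

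The Δ9 desaturase genes *fat-7* and *fat-5* were also among the 15 genes with the highest rises. *fat-7*, which encodes a stearoyl-CoA desaturase, was at 33.8, 40.8, 39.4 and 47.2 CPM on NGM and 258, 202, 262 and 243 CPM on glucose (log2 fold change 2.58, standard error 0.12, adjusted P = 6.72e-06). *fat-5*, whose product acts on palmitoyl-CoA, was at 33.6, 17.3, 19.4 and 16.9 and 106, 110.4, 91.2 and 113 CPM (log2 fold change 2.26, standard error 0.21, adjusted P = 0.000454). These correspond to 5.98-fold and 4.798-fold higher levels. NGM replicate 1 stood above the other NGM libraries for *fat-5* and was still below all glucose libraries. *ech-9*, of the enoyl-CoA hydratase family of fatty acid oxidation, went from 1.45, 1.99, 3.11 and 3.40 to 11.2, 7.75, 10.7 and 7.02 CPM (log2 fold change 1.89, standard error 0.28, adjusted P = 0.00598). With 1 library left out, the adjusted P was 3.70e-06 to 0.000144 for *fat-7*, 2.21e-06 to 0.00373 for *fat-5* and 0.00571 to 0.0302 for *ech-9*.

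The remaining 9 of the 15 genes with the highest rises were 8 cuticle collagens and *pqn-63*, of a family of glutamine- and asparagine-rich proteins, and differed from the genes above in how their libraries spread. *col-119* was at 9.69, 2.17, 8.37 and 4.72 CPM on NGM and 13.05, 64.4, 21.3 and 44.2 CPM on glucose (log2 fold change 2.51, standard error 0.54, adjusted P = 0.0357). *col-129* was at 78.2, 34.8, 51.9 and 25.6 CPM and 94.7, 337, 110.1 and 225 CPM (log2 fold change 2.01, standard error 0.45, adjusted P = 0.0413). In both, the media did not overlap, and glucose replicates 2 and 4 were far above replicates 1 and 3, which were closer to the highest NGM library. *col-81*, *col-124*, *col-137*, *col-139*, *col-179* and *col-181* had log2 fold changes from 1.92 to 2.25. The 8 collagens passed in only 2 or 3 of the 8 fits with 1 library left out, with a largest adjusted P between 0.112 and 0.155, and *pqn-63* (1.90, adjusted P = 0.0242) passed in 4.

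**Figure D2:**
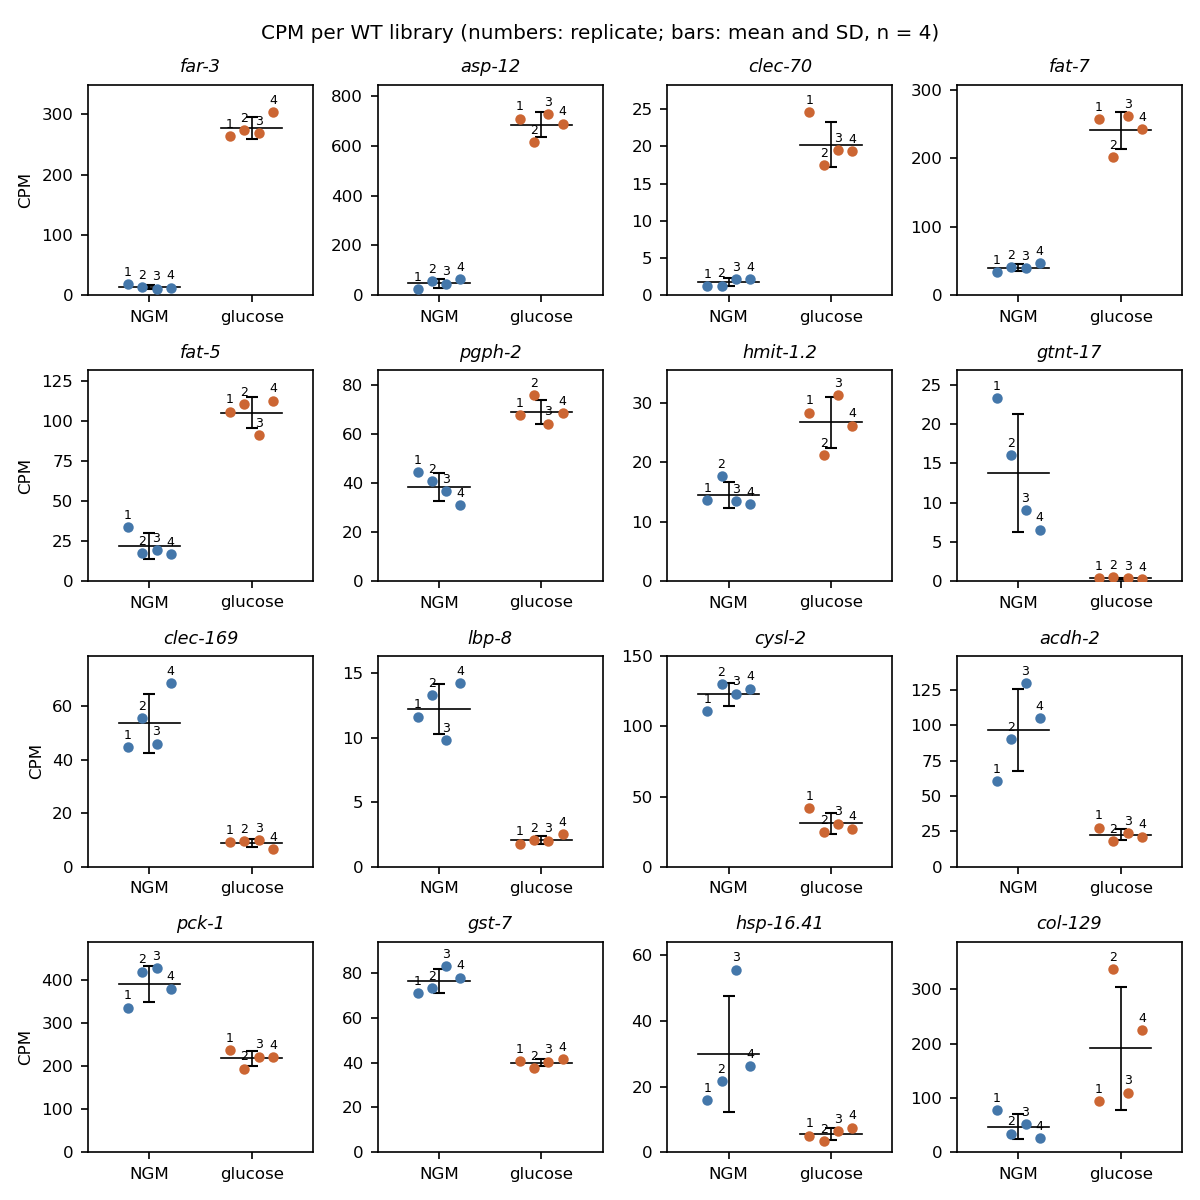
Level (CPM) of named genes in each of the 8 WT libraries, with a panel for each gene. Numbered points are NGM replicates 1 to 4 (left) and glucose replicates 1 to 4 (right), and bars give the mean and SD. *far-3*, *fat-7* and *asp-12* are at a similar level in all 4 glucose libraries, while the collagen gene *col-129* is highest in glucose replicates 2 and 4.

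Some upregulated genes were close to absent on NGM. The saposin-like gene *spp-9*, named after its values were seen, had at most 2 counts in any NGM library and was at 1.67, 1.15, 1.91 and 1.59 CPM on glucose, so that no fold is given. Another saposin-like gene, *spp-12*, was at 0.363, 0, 0.121 and 0.0576 CPM on NGM and 2.66, 1.71, 1.22 and 1.38 CPM on glucose (log2 fold change 3.55, standard error 0.64, adjusted P = 0.0150). The invertebrate-type lysozyme genes *ilys-3* and *ilys-2*, which lie side by side on chromosome IV, rose as well. *ilys-3* was at 0.202, 0.0905, 0.0808 and 0.173 CPM and 0.678, 0.508, 1.22 and 0.691 CPM (log2 fold change 2.46, standard error 0.47, adjusted P = 0.0212). The levels of *ilys-3* in the glucose libraries varied, and it passed in 3 of the 8 fits with 1 library left out.

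The largest falls were those of *gtnt-17* and *gtnt-18*, a pair of adjacent genes on chromosome V. *gtnt-17* was at 23.3, 16.02, 9.05 and 6.56 CPM on NGM and 0.365, 0.462, 0.318 and 0.266 CPM on glucose (log2 fold change -5.25, standard error 0.47, adjusted P = 0.000451). *gtnt-18* was at 20.6, 17.02, 9.09 and 6.22 and 0.261, 0.323, 0.529 and 0.478 CPM (log2 fold change -5.05, standard error 0.46, adjusted P = 0.000454). The glucose libraries held 5 to 10 counts of *gtnt-17* each, and NGM replicates 1 and 2 were above NGM replicates 3 and 4 for both genes. As members of a family that lie next to each other, they may share reads, and their separate values are uncertain.

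*Y71G12B.18* and *C09B8.4*, which have no role given in the files used, fell by 3.78 and 3.33 on the log2 scale. *Y71G12B.18* was at 23.3, 19.1, 10.2 and 5.93 CPM on NGM and 1.25, 0.877, 1.06 and 1.06 CPM on glucose (adjusted P = 0.00142). *C09B8.4* was at 8.68, 11.9, 19.1 and 16.01 and 1.305, 0.646, 1.75 and 1.86 CPM (adjusted P = 0.000881). Both were lower in all 4 glucose libraries. *lbp-8*, which encodes a fatty acid binding protein known to carry lipid signals from the lysosome to the nucleus, went from 11.6, 13.3, 9.78 and 14.2 to 1.77, 2.08, 2.01 and 2.50 CPM (log2 fold change -2.54, standard error 0.18, adjusted P = 8.91e-05). The C-type lectin gene *clec-169* went from 44.7, 55.5, 46.1 and 68.6 to 9.24, 9.51, 10.004 and 6.43 CPM (log2 fold change -2.61, standard error 0.17, adjusted P = 6.85e-05). *acdh-2*, of the acyl-CoA dehydrogenase family, was at 60.5, 90.3, 129.9 and 105 CPM on NGM and 27.7, 17.96, 23.6 and 21.3 CPM on glucose (log2 fold change -2.09, standard error 0.22, adjusted P = 0.000972). For none of these genes did a glucose library reach the lowest NGM library. *dhs-8* (a short-chain dehydrogenase), *fbxo-11.2*, *W01C9.2* and *B0024.4* completed this group, with log2 fold changes between -2.58 and -2.40. All genes of this paragraph kept their call in each of the 8 fits with 1 library left out.

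Counts over the gene lists here and below stand beside 1.19% of all genes tested that rose and 2.42% that fell. Among 23 genes of fatty acid synthesis, desaturation and elongation, *fat-7* and *fat-5* rose and *elo-5* and *elo-6* fell. The median log2 fold change was -0.043, against 0.0138 over all genes. *elo-5* and *elo-6* encode elongases that are needed for branched-chain fatty acids. *elo-5* was at 280.1 ± 32.1 CPM on NGM and 184 ± 10.4 CPM on glucose (mean ± SD, n = 4), a log2 fold change of -0.61 in edgeR (adjusted P = 0.00451), and *elo-6* at 436 ± 30.7 and 319 ± 17.99 CPM (-0.45, adjusted P = 0.00712). The third Δ9 desaturase gene *fat-6* was at 549, 565, 566 and 587 CPM on NGM and 543, 489, 532 and 534 CPM on glucose (-0.11, adjusted P = 0.245). Per length of the gene, the level of *fat-7* went from 35.9 to 215 FPKM (CPM divided by the gene length in kilobases), while *fat-6* was at 163 and 150.3 FPKM. Per length, *fat-7* thus moved from below to above its closest relative, but in CPM it stayed below *fat-6* in every library. Their order on glucose therefore depends on the gene lengths used. *pod-2* and *fasn-1*, which encode acetyl-CoA carboxylase and fatty acid synthase, had log2 fold changes of -0.36 and -0.28 and did not pass (adjusted P = 0.226 and 0.239). The polyunsaturated fatty acid desaturases *fat-1*, *fat-2*, *fat-3* and *fat-4* ranged from -0.12 to 0.027 and none passed. The regulators *nhr-49* (0.26, adjusted P = 0.0782), *nhr-80* (0.0061, adjusted P = 0.975) and *sbp-1* (-0.30, adjusted P = 0.168) did not pass either.

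Genes of fatty acid oxidation moved in both directions. Of 29 genes tested, *acdh-10*, *cpt-3* and *cpt-5* rose, *ech-6*, *kat-1* and *cpt-4* fell and the median was 0.14. The carnitine palmitoyltransferase gene *cpt-3* was low, at 0.121, 0.769, 0.364 and 0.230 CPM on NGM and 2.40, 2.08, 4.71 and 3.03 CPM on glucose (log2 fold change 3.02, standard error 0.49, adjusted P = 0.00931). *acdh-10*, of a medium-chain acyl-CoA dehydrogenase, had a log2 fold change of 0.42 (adjusted P = 0.00615) and *cpt-5* of 0.97 (adjusted P = 0.0205). The thiolase gene *kat-1* was at 319, 358, 372 and 382 CPM on NGM and 247, 217, 239 and 228 CPM on glucose (log2 fold change -0.62, standard error 0.073, adjusted P = 0.00172), and was lower in all 4 glucose libraries. *cpt-4* fell by 0.53 on the log2 scale (adjusted P = 0.0246), and passed in 4 of the fits with 1 library left out, as did *cpt-5* in 5. *acs-2*, an acyl-CoA synthetase gene known to be induced by fasting, did not pass (0.090, adjusted P = 0.791).

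Of 22 lipase genes, *lipl-3* rose and *fil-1* and *lipl-5* fell. The lysosomal acid lipase gene *lipl-3* was at 0.686, 1.27, 1.01 and 0.749 CPM on NGM and 3.08, 2.95, 3.33 and 3.72 CPM on glucose (log2 fold change 1.81, standard error 0.26, adjusted P = 0.00452). *fil-1*, a fasting-induced lipase gene, fell by 1.32 (adjusted P = 0.0199) and *lipl-5* by 0.34 on the log2 scale (adjusted P = 0.0376). *lipl-3* passed in all 8 fits with 1 library left out, and *fil-1* and *lipl-5* in 3 each. The adipose triglyceride lipase gene *atgl-1* (-0.081, adjusted P = 0.712) and the hormone-sensitive lipase gene *hosl-1* (0.029, adjusted P = 0.854) did not pass.

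The genes that handle sugar itself moved little. Of 19 glycolysis genes, 0 rose and 1 fell, with a median of -0.11, beside 1.19% and 2.42% of all genes tested. The gene that fell was *ldh-1* (lactate dehydrogenase; -0.52, adjusted P = 0.0370), which passed in 2 of the 8 fits with 1 library left out. 8 glycolysis genes fell when NGM replicate 1 was left out and 0 when any of NGM replicates 2 to 4 was. In DESeq2, 6 glycolysis genes fell. The hexokinase genes *hxk-1*, *hxk-2* and *hxk-3*, at the entry to the pathway, had log2 fold changes of 0.26, 0.028 and -0.074, with adjusted P values of 0.264, 0.847 and 0.551. Of 6 genes of gluconeogenesis and the glyoxylate cycle, *pck-1* alone changed. It encodes phosphoenolpyruvate carboxykinase, the enzyme that commits carbon to the synthesis of glucose, and was at 335, 419, 426 and 379.5 CPM on NGM and 237, 194, 222 and 220.2 CPM on glucose (log2 fold change -0.84, standard error 0.091, adjusted P = 0.00119). The glucose libraries were all below the NGM libraries, and the call was kept with any library left out. Of the related genes, *pck-2* (-0.29, adjusted P = 0.138) and *fbp-1* (-0.31, adjusted P = 0.0866), of fructose-1,6-bisphosphatase, did not pass. In the tricarboxylic acid cycle, 0 of 27 genes rose and *pdhb-1* (-0.35, adjusted P = 0.0473) and *mdh-1* (-0.30, adjusted P = 0.0489) fell, both with a call that 6 or more of the 8 fits with 1 library left out did not keep. The median of the 27 genes was -0.19, with 1 above 0. The media did not overlap in 10 of them, beside 13.1% of all genes tested. The number of the 27 genes that fell was 10 without NGM replicate 1 and 7 in DESeq2.

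In the storage of sugar, 1 of 13 genes rose and 2 fell. The trehalase gene *tre-2*, whose product splits trehalose into glucose, was at 34.3, 33.5, 32.9 and 27.8 CPM on NGM and 48.5, 56.9, 51.7 and 59.7 CPM on glucose (log2 fold change 0.75, standard error 0.092, adjusted P = 0.00207). The other trehalase genes *tre-1*, *tre-3*, *tre-4* and *tre-5* had log2 fold changes between -0.27 and 0.041 and did not pass. *agl-1* (glycogen debranching enzyme; -0.31, adjusted P = 0.0171) and *gsy-1* (glycogen synthase; -0.32, adjusted P = 0.0423) fell, and passed in 3 and 2 of the 8 fits with 1 library left out. The trehalose synthase genes *tps-1* (-0.24, adjusted P = 0.354) and *tps-2* (-0.43, adjusted P = 0.119) did not pass. The glycogen phosphorylase gene *pygl-1* was at 475, 485, 456 and 466 CPM on NGM and 439, 421, 441 and 454 CPM on glucose (-0.10, adjusted P = 0.261).

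Genes of glycerol synthesis and of sugar and inositol transport were among those that rose. All 6 tested genes of glycerol and glycerol-3-phosphate were above 0, beside 7935 of all 15271 genes tested. Of the 6 genes, 2 rose, beside 1.19% of all genes tested. *pgph-2* itself was at 44.3, 40.8, 36.7 and 30.9 CPM on NGM and 67.5, 75.8, 64.1 and 68.5 CPM on glucose (log2 fold change 0.85, standard error 0.11, adjusted P = 0.00239), a 1.81-fold higher level. The glycerol-3-phosphate dehydrogenase gene *gpdh-2* was at 128.8, 124, 128 and 112 CPM and 176, 180.3, 179 and 171 CPM (log2 fold change 0.52, standard error 0.062, adjusted P = 0.00173). Both were higher in all 4 glucose libraries and kept their call with any library left out and also without both glucose replicates 2 and 4. The other dehydrogenase gene, *gpdh-1*, known for its strong induction by hypertonic medium, was at 13.5, 9.91, 15.9 and 9.90 CPM on NGM and 14.9, 22.8, 10.8 and 12.8 CPM on glucose and did not pass (0.32, adjusted P = 0.439). *gpdh-3* (0.080, adjusted P = 0.385) and *pgph-3* (0.69, adjusted P = 0.0928) did not pass, and *pgph-1* had too few counts to be tested.

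Of 10 genes of inositol and glucose transporters, 3 rose and 0 fell, beside 1.19% and 2.42% of all genes tested. The number that rose was 2 to 3 with 1 library left out. It was 1 with a block for the replicate number and 1 without both glucose replicates 2 and 4. The proton-coupled myo-inositol transporter gene *hmit-1.1* was at 18.5, 19.5, 15.8 and 10.998 CPM on NGM and 30.5, 37.2, 30.3 and 30.2 CPM on glucose (log2 fold change 0.98, standard error 0.16, adjusted P = 0.00997). *hmit-1.2* was at 13.7, 17.7, 13.5 and 12.96 and 28.4, 21.2, 31.4 and 26.2 CPM (log2 fold change 0.89, standard error 0.14, adjusted P = 0.00863), and the third member, *hmit-1.3*, did not pass (-0.11, adjusted P = 0.556). *swt-3*, of the SWEET family of sugar transporters, rose by 1.04 on the log2 scale (adjusted P = 0.0147) and passed in 6 of the 8 fits with 1 library left out. The facilitated glucose transporter gene *fdgt-1* had a log2 fold change of -0.31 (adjusted P = 0.0651). Of 19 genes of the osmotic response, 3 rose and 0 fell, beside the same shares. The 3 were *gpdh-2*, *hmit-1.1* and *hmit-1.2*. In contrast, 0 of 10 aquaporin genes rose, and *aqp-4* (-0.58, adjusted P = 0.00890) and *aqp-10* (-0.37, adjusted P = 0.0313) fell, beside 2.42% of all genes tested. The fall of *aqp-10* passed in 2 of the 8 fits with 1 library left out.

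The 5 genes of the propionate shunt fell. Propionate, from branched-chain amino acids and odd-chain fatty acids, is known to be metabolized in *C. elegans* through methylmalonyl-CoA, with vitamin B12, or through a shunt without it. Of 23 genes tested for these pathways and the methionine cycle, 1 rose and 5 fell, beside 1.19% and 2.42% of all genes tested. Their median was -0.13. The number that fell was 4 to 9 with 1 library left out, 8 in DESeq2 and 2 with a block for the replicate number. Of the 5 genes that fell, *acdh-1*, *hphd-1* and *alh-8* belong to the shunt. Its other known genes, *ech-6*, from the list of fatty acid oxidation, and *hach-1*, from no list and added after its value was seen, fell as well. *hphd-1* was at 925, 1025, 1082 and 1073 CPM on NGM and 673, 645, 667 and 645 CPM on glucose (log2 fold change -0.64, standard error 0.063, adjusted P = 0.000690). *alh-8* was at 1602, 1844, 1819 and 1921 and 1178, 1029, 1182 and 1143 CPM (log2 fold change -0.67, standard error 0.073, adjusted P = 0.00126). *ech-6* was at 1168, 1297, 1315 and 1369.9 and 803, 806, 789.7 and 805 CPM (log2 fold change -0.68, standard error 0.060, adjusted P = 0.000397), and *hach-1*, of a hydrolase, at 554, 614, 671 and 645 and 323, 311, 329 and 312 CPM (log2 fold change -0.96, standard error 0.069, adjusted P = 9.19e-05). No glucose library reached the NGM libraries in these genes, and *acdh-1*, the first gene of the shunt, fell by 0.37 on the log2 scale (adjusted P = 0.00293). All 5 calls were kept with any library left out. In the B12-dependent route, *mmcm-1*, of methylmalonyl-CoA mutase, fell (-0.32, adjusted P = 0.0153), and passed in 3 of the 8 fits with 1 library left out. The propionyl-CoA carboxylase genes *pcca-1* and *pccb-1* had log2 fold changes of -0.30 and -0.25 and did not pass (adjusted P = 0.0797 and 0.0999). *cbs-1*, of cystathionine β-synthase, fell (-0.90, adjusted P = 0.00802), *mtrr-1*, of methionine synthase reductase, rose (0.38, adjusted P = 0.0159), and *metr-1* (0.0027, adjusted P = 0.993) and *sams-1* (-0.38, adjusted P = 0.0764) did not pass.

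Among detoxification genes, 10 of 38 glutathione S-transferase genes fell and 0 rose, with a median of -0.31, beside 2.42% and 1.19% of all genes tested. *gst-7* was at 70.7, 73.1, 82.9 and 77.7 CPM on NGM and 40.6, 37.6, 40.3 and 41.5 CPM on glucose (log2 fold change -0.93, standard error 0.070, adjusted P = 0.000130). *gst-13* was at 49.6, 42.3, 48.1 and 42.2 and 21.9, 28.3, 23.2 and 25.5 CPM (log2 fold change -0.88, standard error 0.10, adjusted P = 0.00129). *gst-10*, whose product conjugates the lipid aldehyde 4-hydroxynonenal, was at 57.1, 49.5, 46.8 and 40.7 and 16.6, 29.9, 21.7 and 25.8 CPM (log2 fold change -1.05, standard error 0.17, adjusted P = 0.00876). These 3 genes were lower in all glucose libraries, and they, *gst-6*, *gst-36* and *gst-42* passed the test with any library left out. The fall of *gst-10* was also at least 2-fold in 6 of these 8 fits. The others that fell were *gst-1*, *gst-27*, *gst-28* and *gst-38*, with log2 fold changes between -0.89 and -0.40. The number that fell ranged from 6 without glucose replicate 4 to 14 without NGM replicate 1, and was 6 without both glucose replicates 2 and 4. *gst-4*, the common reporter of the oxidative stress factor SKN-1, was at 23.1, 22.04, 24.1 and 19.9 CPM on NGM and 18.6, 19.3, 19.5 and 18.2 CPM on glucose (-0.24, adjusted P = 0.142), and the SKN-1 target *gcs-1* did not pass either (-0.16, adjusted P = 0.154). Of 24 antioxidant enzyme genes, 0 passed in either direction, with log2 fold changes from -0.43 to 0.49.

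Of 61 UDP-glucuronosyltransferase genes, 7 fell and 2 rose, with a median of -0.23, beside 2.42% and 1.19% of all genes tested. *ugt-63* was at 11.6, 14.8, 24.7 and 19.8 CPM on NGM and 6.58, 3.92, 6.03 and 6.86 CPM on glucose (log2 fold change -1.601, standard error 0.25, adjusted P = 0.00826) and *ugt-46* fell by 0.44 on the log2 scale (adjusted P = 0.00949). The number that fell was 2 without NGM replicate 2 and 12 without NGM replicate 1. Of 62 cytochrome P450 genes, 4 rose and 3 fell, beside 1.19% and 2.42% of all genes tested. Those that rose were *cyp-35A1*, *cyp-35A2*, *cyp-35A3* and *cyp-35A4*. This family is known for its induction by foreign compounds and for effects on fat content. *cyp-35A4* was at 15.99, 14.4, 9.90 and 10.5 CPM on NGM and 24.2, 35.4, 23.3 and 36.4 CPM on glucose (log2 fold change 1.23, standard error 0.20, adjusted P = 0.00949). The others had log2 fold changes from 0.82 to 1.86, and passed in 2 to 4 of the 8 fits with 1 library left out, against 8 for *cyp-35A4*. As the 4 genes are closely related, reads may be shared between them. *cyp-13A5* fell by 1.91 on the log2 scale (adjusted P = 0.00233).

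Some genes known as targets of the hypoxia factor HIF-1 fell and 1 rose, while *hif-1* itself did not pass. They were put together after the value of *cysl-2* was seen, so that no count over a list is given. The cysteine synthase family gene *cysl-2* was at 111, 129.9, 123 and 127 CPM on NGM and 41.5, 24.6, 30.5 and 27.1 CPM on glucose (log2 fold change -1.99, standard error 0.15, adjusted P = 0.000117). *rhy-1*, which encodes a regulator upstream of EGL-9, was at 35.1, 27.4, 29.2 and 33.6 and 19.1, 17.7, 19.7 and 22.2 CPM (log2 fold change -0.67, standard error 0.11, adjusted P = 0.00815). Both were lower in each glucose library and kept their call with any library left out. *egl-9*, the prolyl hydroxylase that marks HIF-1 for degradation (-0.50, adjusted P = 0.0334), *phy-2* (-0.42, adjusted P = 0.0321), *nhr-57* (-0.87, adjusted P = 0.0490) and the sulfide quinone oxidoreductase gene *sqrd-1* (-1.03, adjusted P = 0.0305) fell too, and passed in 1 to 4 of the 8 fits with 1 library left out. *fmo-2*, of a flavin-containing monooxygenase, rose (1.56, adjusted P = 0.0430), and passed in 1 of these fits. *hif-1* (-0.10, adjusted P = 0.493), *cysl-1* (-0.016, adjusted P = 0.914), *ethe-1* (-0.29, adjusted P = 0.402) and *F22B5.4* (0.00022) did not pass.

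Of 21 cytosolic heat shock genes, 12 fell on glucose and 2 rose, with a median of -0.50, beside 2.42% and 1.19% of all genes tested. The small heat shock protein gene *hsp-16.41*, a chaperone gene under control of HSF-1, was at 15.95, 21.7, 55.7 and 26.3 CPM on NGM and 5.12, 3.32, 6.56 and 7.497 CPM on glucose (log2 fold change -2.42, standard error 0.40, adjusted P = 0.00949). The adjacent *hsp-16.2* was at 13.7, 18.5, 56.5 and 24.5 and 6.52, 4.94, 8.73 and 8.08 CPM (log2 fold change -2.01, standard error 0.41, adjusted P = 0.0283). It passed in 4 of the 8 fits with 1 library left out. The inducible *hsp-70* was at 46.1, 54.4, 104 and 44.5 and 15.2, 18.1, 19.7 and 24.5 CPM (log2 fold change -1.69, standard error 0.27, adjusted P = 0.00893). NGM replicate 3 had the highest level in 13 of the 21 genes, and the glucose libraries were lower than all NGM libraries in these 3 genes. *F44E5.4* (adjusted P = 0.0196) and *F44E5.5* (adjusted P = 0.0142), 2 nearly identical *hsp-70* family genes side by side on chromosome II, fell by 2.08 and 1.99 on the log2 scale. Reads of this pair, and of *hsp-16.1* with *hsp-16.11* and *hsp-16.48* with *hsp-16.49*, can be assigned to either copy. Abundant chaperones changed less, as *hsp-90* went from 2033, 2192, 2445 and 2262 to 1758, 1543, 1726 and 1654 CPM (log2 fold change -0.42, standard error 0.071, adjusted P = 0.0110) and *hsp-1* had a log2 fold change of -0.28 (adjusted P = 0.0451). *hsp-110* (-0.50, adjusted P = 0.0267), *dnj-13* (-0.43, adjusted P = 0.0319) and *hsp-43* (-0.84, adjusted P = 0.0108) fell as well. The factor gene *hsf-1* did not pass (0.056, adjusted P = 0.820).

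The genes that rose in this list were the small heat shock genes *hsp-12.3* (1.28, adjusted P = 0.00849) and *sip-1* (1.61, adjusted P = 0.0212), the latter known from oocytes and embryos. The number of heat shock genes that fell was 4 without glucose replicate 4, 6 without glucose replicate 2, 7 without glucose replicate 3 and 13 without NGM replicate 1. It was 0 when glucose replicates 2 and 4 were both omitted, and 2 with the sperm level as a covariate. Summed over the list, the genes were at 5501 to 6605 CPM on NGM and 4400 to 4868 CPM on glucose, and these ranges did not overlap. Of chaperones in other compartments, 1 of 18 genes of the endoplasmic reticulum fell (*pdi-3*, a protein disulfide isomerase; -0.26, adjusted P = 0.0393) and 0 of 10 mitochondrial chaperones passed, with a median of -0.24.

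Genes linked to defence against microbes changed in both directions. Of 143 C-type lectin genes, 7 rose and 11 fell, with a median of 0.13, beside 1.19% and 2.42% of all genes tested. With 1 library left out, 4 to 15 rose and 7 to 15 fell, both highest without NGM replicate 1. Besides *clec-70* and *clec-169*, *clec-206* was at 11.5, 10.6, 7.88 and 8.87 CPM on NGM and 24.6, 28.02, 27.3 and 28.1 CPM on glucose (log2 fold change 1.47, standard error 0.13, adjusted P = 0.000374), *clec-52* rose (1.01, adjusted P = 0.000593), and *clec-41* (-0.99, adjusted P = 0.00121) and *clec-210* (-1.37, adjusted P = 0.00173) fell. These 6 lectins passed in all fits with 1 library left out. Of 12 lysozyme genes, 4 rose and 2 fell. *lys-1*, a gene of the intestine, was at 375, 391, 434 and 469.6 CPM on NGM and 258, 255, 275 and 257 CPM on glucose (log2 fold change -0.68, standard error 0.077, adjusted P = 0.00147), while *lys-4* rose by 0.37 (adjusted P = 0.00424). Both kept their call with any library left out, whereas *lys-2* (-0.55, adjusted P = 0.0238) and *lys-5* (0.93, adjusted P = 0.0423) did so in 3 fits each. *lys-7* (-0.073, adjusted P = 0.748) and *lys-8* (-0.11, adjusted P = 0.282) did not pass.

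Of 62 saposin-like, thaumatin-like and antimicrobial peptide genes, 6 rose and 3 fell, beside 1.19% and 2.42% of all genes tested. The falls were in 3 abundant saposin-like genes. *spp-5*, which encodes a pore-forming protein that kills bacteria, was at 511, 537, 485 and 533 CPM on NGM and 289, 348, 316 and 319.7 CPM on glucose (log2 fold change -0.70, standard error 0.069, adjusted P = 0.000705). *spp-8* (-0.53, adjusted P = 0.00398) and *spp-3* (-0.49, adjusted P = 0.00949) also fell, and *thn-2*, of the thaumatin family, rose (1.08, adjusted P = 0.0110). Of 7 infection response genes, *irg-5*, *irg-4* and *irg-7* fell and 0 rose. The fall of *irg-7* (-0.35, adjusted P = 0.0490) passed in 2 of the 8 fits with 1 library left out. *irg-5* was at 13.2, 9.14, 12.29 and 15.5 CPM on NGM and 3.50, 4.06, 4.45 and 2.92 CPM on glucose (log2 fold change -1.74, standard error 0.20, adjusted P = 0.00142). *irg-4* was at 26.1, 25.5, 33.6 and 32.5 and 12.06, 11.5, 13.97 and 15.1 CPM (log2 fold change -1.16, standard error 0.13, adjusted P = 0.00131). Both genes are known to depend on the p38 kinase PMK-1, and no glucose library reached the NGM levels. Of 8 genes with a CUB-like domain or of the *dod* class, which were named for lying downstream of DAF-16, 4 fell: *dod-22* (-1.92, adjusted P = 0.00296), *dod-24* (-1.1, adjusted P = 0.0108), *dod-19* (-0.95, adjusted P = 0.0126) and *dod-17* (-0.90, adjusted P = 0.00598). *dod-22* was at 6.78, 10.8, 14.02 and 11.2 CPM on NGM and 3.86, 2.58, 2.22 and 2.66 CPM on glucose. The number of the 4 that fell was 2 without glucose replicate 4 and 0 without both glucose replicates 2 and 4.

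Of 142 cuticle collagens tested, 9 rose and 1 fell, beside 1.19% and 2.42% of all genes tested. The median was 0.44, and the number that rose rested on single libraries. It was 0 without any one of NGM replicates 2, 3 and 4 and glucose replicates 2 and 4, 5 without glucose replicate 3, 25 without glucose replicate 1 and 47 without NGM replicate 1. Summed over the list, glucose replicates 2 and 4 were at 50510 and 46541 CPM, replicates 1 and 3 at 34104 and 36530 CPM and the NGM libraries at 30765 to 36853 CPM, so that glucose replicates 1 and 3 were within the NGM range. Both replicates 2 and 4 were above all other libraries in 72 of 142 collagens. The collagen that fell was *dpy-17*, needed for body shape, at 31.1, 37.4, 37.5 and 37.8 CPM on NGM and 9.92, 5.59, 13.8 and 8.13 CPM on glucose (log2 fold change -1.94, standard error 0.22, adjusted P = 0.00158), and this call was kept with any library left out.

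Glucose replicates 2 and 4 were also the highest in germ line genes. All 66 sperm genes were above 0, with a median of 0.63, and 0 passed. All 21 oocyte genes were above 0, with a median of 0.81, and 0 passed. Here DESeq2 called 14 sperm genes and 15 oocyte genes as higher, and edgeR 19 and 13 without NGM replicate 1. Both glucose replicates 2 and 4 were above all other libraries in 56 of 66 sperm genes, 20 of 21 oocyte genes and 5 of 6 vitellogenin genes. Summed over the 6 genes, the vitellogenins, which carry lipid from the intestine to the oocytes, were at 948 and 718 CPM in these replicates, at 274 and 288 CPM in glucose replicates 1 and 3 and at 222 to 433 CPM on NGM. *vit-5* was at 6.50, 1.67, 3.03 and 0.461 CPM on NGM and 5.01, 51.5, 3.49 and 32.9 CPM on glucose (log2 fold change 2.95, standard error 0.90, adjusted P = 0.0979) and *vit-2* had a log2 fold change of 0.59 (adjusted P = 0.454). 0 of 6 vitellogenins passed, and reads of *vit-3*, *vit-4* and *vit-5*, which are near copies, may be shared. Of 34 histone genes, *his-24*, of a linker histone, rose from 27.7, 25.1, 33.9 and 18.3 to 56.6, 64.3, 72.5 and 65.7 CPM (log2 fold change 1.299, standard error 0.16, adjusted P = 0.00232), and *his-7* rose by 1.52 (adjusted P = 0.0424) with a call kept in 3 of the 8 fits. With the mean level of the sperm genes as a covariate, 52 genes were upregulated and 52 downregulated on glucose, and 76 of the 180 calls were kept.

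**Figure D3:**
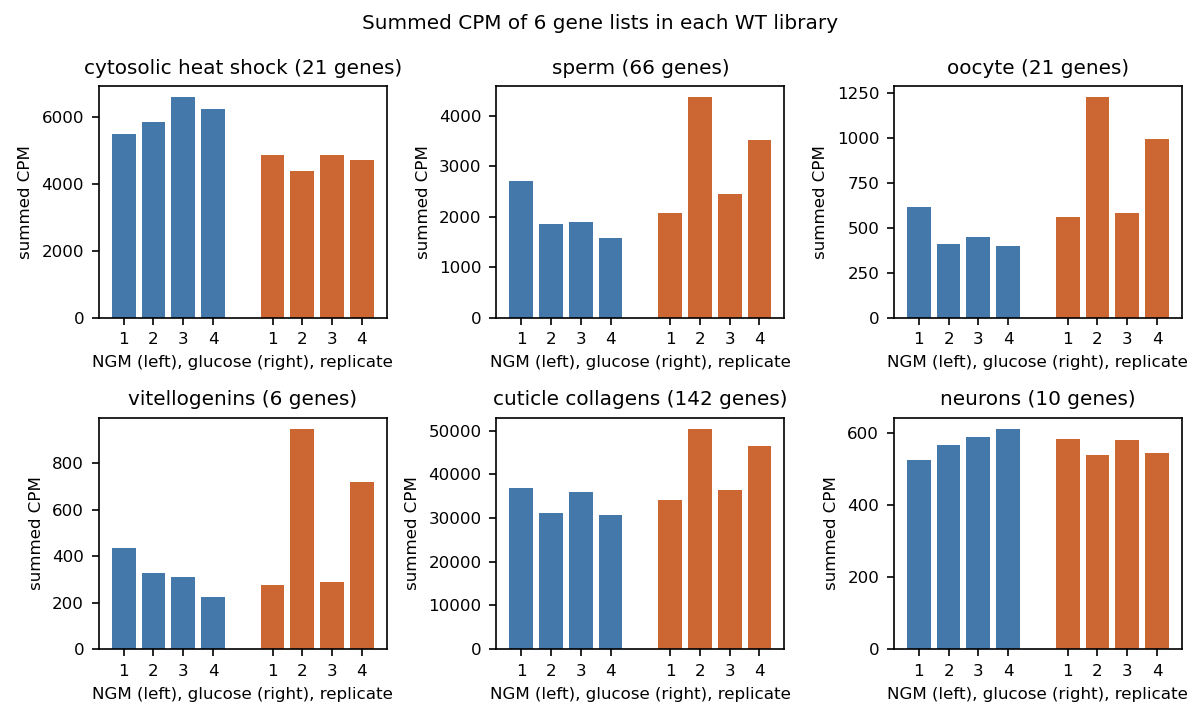
Summed level (CPM) of cytosolic heat shock, sperm, oocyte, vitellogenin, cuticle collagen and neuron genes in each WT library, with NGM and glucose replicates as separate bars. Glucose replicates 2 and 4 are above all other libraries in sperm, oocyte, vitellogenin and collagen genes. All glucose libraries are below all NGM libraries in heat shock genes.

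Lists of growth and energy metabolism held few or no genes that passed. In 66 cytosolic ribosomal protein genes 0 passed, with a median of -0.099 and 2 genes above 0. In 38 nuclear-encoded genes of the respiratory chain 0 passed, with a median of -0.15 and 2 genes above 0. The media did not overlap in 11 of these 38 genes, beside 13.1% of all genes tested. Summed, the 38 genes were at 16826 to 19524 CPM on NGM and 15252 to 16758 CPM on glucose, which did not overlap. Under DESeq2, 8 of these 38 genes fell. Of 26 autophagy genes, 0 passed, with log2 fold changes from -0.33 to 0.22, and of 18 genes of the AMPK and TOR pathways 0 passed, with log2 fold changes from -0.22 to 0.28. *hlh-30*, the worm gene of the TFEB factor that drives lysosomal and autophagy genes, was at 87.9, 98.8, 105 and 108 CPM on NGM and 118, 87.1, 110.3 and 101 CPM on glucose (0.059, adjusted P = 0.751). The AMP-activated kinase subunit genes *aak-1* (0.14, adjusted P = 0.397) and *aak-2* (-0.13, adjusted P = 0.363), the forkhead factor gene *daf-16* (-0.053, adjusted P = 0.594) and the acetylcholine receptor gene *eat-2*, needed for pharyngeal pumping (-0.57, adjusted P = 0.470), did not pass. Of 45 genes of the V-ATPase and lysosomal hydrolases, *asp-12* and the cathepsin B gene *cpr-1* (0.69, adjusted P = 0.0184) rose, and *asp-14* (-0.78, adjusted P = 0.00131), *asp-17* (-0.73, adjusted P = 0.00893) and the intestinal V-ATPase gene *vha-6* (-0.36, adjusted P = 0.0497) fell.

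Of 23 genes of insulin-like peptides, *ins-35* fell (-1.06, adjusted P = 0.0134) and 0 rose. Of 193 nuclear hormone receptor genes, 4 rose and 5 fell, beside 1.19% and 2.42% of all genes tested. With 1 library left out, 1 to 5 rose and 2 to 8 fell, both lowest without NGM replicate 2 and highest without NGM replicate 1. Those that fell include the adjacent *nhr-234* (-1.297, adjusted P = 0.0171) and *nhr-235* (-3.13, adjusted P = 0.0170). Of the tissue markers, 0 of 10 changed in hypodermis and in neurons, 1 fell in body wall muscle (*myo-3*, of a muscle myosin; -0.43, adjusted P = 0.00395) and 2 fell in intestine (*ges-1*, -0.32, adjusted P = 0.0326, and *vha-6*). *ges-1* and *vha-6* each passed in 2 of the 8 fits with 1 library left out, while *myo-3* passed in all 8. The part of the summed levels of these markers in the falls of intestinal genes was not tested.

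**Figure D4:**
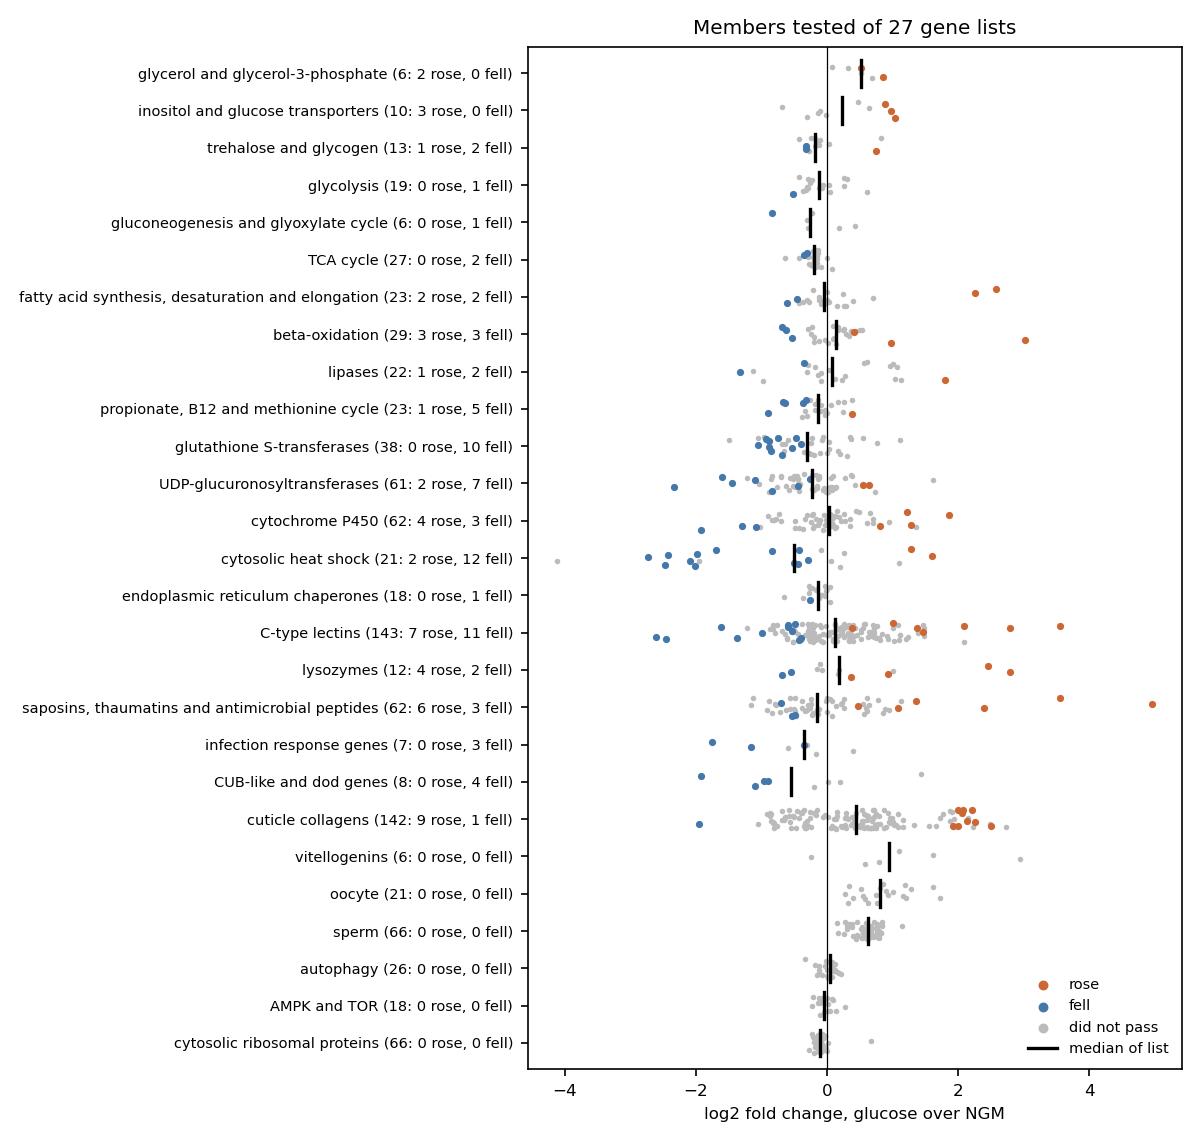
Log2 fold changes on glucose against NGM (horizontal axis) of the members of gene lists (1 per line), with coloured points for members that rose or fell at an adjusted P of at most 0.05, grey points for the others and a bar for the median. Glutathione S-transferases (median -0.31) and heat shock genes (median -0.50) have most members below 0, and all oocyte genes (median 0.81) lie above 0 with no member that passed.

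Some of the called genes lay next to each other. Among neighbours in the order of tested genes along each chromosome, 19 pairs were called in the same direction, 6 upregulated and 13 downregulated, and these pairs held 38 of the 180 called genes (21.1%). They include *cysl-2* and *dhs-8* on chromosome II (14492827 to 14494514 and 14498026 to 14499686, WBcel235), *clec-69* and *clec-70* on chromosome IV, and *irg-5* with *F35E12.9* on chromosome V. The genes *pho-11* and *C05C10.3* overlap in a short stretch at their ends (9934404 to 9934431 on chromosome II), and whether the counting used strand is not given in the sources used here, so that reads of that stretch may have been counted for either. Chromosome V held 29 upregulated and 36 downregulated genes of 3031 tested (0.957% and 1.19%), and chromosome X 16 and 6 of 2120.

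The change in WT was then set beside that in the other genotypes. The WT libraries are not part of the other comparisons on glucose and NGM, but the 3 tests of the interaction of genotype and medium share them. In *pgph-2 o/e*, 999 genes (6.65%) were upregulated and 1968 (13.1%) downregulated on glucose. Of the 91 genes upregulated in WT, 83 were tested there, of which 25 were upregulated and 20 downregulated, and of 86 genes downregulated in WT, 43 were downregulated and 2 upregulated. In *hlh-30*, where 530 (3.54%) and 140 (0.936%) genes were called, 40 of 72 tested upregulated genes of WT were upregulated and 0 downregulated, and 49 of 84 downregulated genes were downregulated and 5 upregulated. In the double mutant, with 183 (1.2%) and 97 (0.635%) called genes, 44 of 78 were upregulated and 1 downregulated, and 42 of 85 were downregulated and 1 upregulated. The interaction passed with a difference of at least 1 on the log2 scale in 3231 (20.4%), 83 (0.523%) and 22 (0.137%) of all genes tested for *pgph-2 o/e*, *hlh-30* and the double mutant. Of the 180 genes called in WT, it was 76, 17 and 9, where the genes had been chosen by their change in WT libraries that these tests also use.

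The rises of *far-3* and *fat-7* were seen in every genotype. The log2 fold change of *far-3* was 4.78 in *pgph-2 o/e*, 4.13 in *hlh-30* and 4.52 in the double mutant, and that of *fat-7* was 2.36, 2.70 and 2.95. None of the 6 interactions passed, with adjusted P values of at least 0.274. *fat-5* rose by 1.303 in *pgph-2 o/e*, less than in WT (interaction -0.96, adjusted P = 0.00586), but with the sperm level as a covariate this interaction was 0.12 (adjusted P = 0.998). *pgph-2* rose by 0.83 on the log2 scale in *pgph-2 o/e*. Its log2 fold change was -0.19 in *hlh-30*, where the interaction did not pass (-1.07, adjusted P = 0.0935). In the double mutant it was -0.60 (interaction with WT -1.45, adjusted P = 0.000188). Its reads include those of the transgene both in *pgph-2 o/e* and in the double mutant. *gpdh-2* also differed in the double mutant, at -0.13 (interaction -0.65, adjusted P = 0.0289). That interaction passed in 7 of the 16 fits with 1 library left out.

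Other genes had a response that differed from WT in one or more genotypes. The log2 fold change of *asp-12* was 1.003 in *pgph-2 o/e* (interaction -2.85, adjusted P = 1.23e-05) and 1.63 in the double mutant (interaction -2.22, adjusted P = 0.00191). The collagens *col-129*, *col-81* and *col-124* had log2 fold changes of -4.005, -4.15 and -3.60 in *pgph-2 o/e*, with interactions of -6.02, -6.17 and -5.53. In WT, these collagens were highest in glucose replicates 2 and 4. With the sperm level as a covariate, 0 genes passed the interaction of edgeR for *pgph-2 o/e* at any size (846 at an unadjusted P under 0.05), so that each call for this genotype given here was lost. *hsp-16.41* fell in *pgph-2 o/e* by more than in WT, at -4.51 (interaction -2.103, adjusted P = 0.0219), and had log2 fold changes of 1.94 in *hlh-30* (interaction 4.32, adjusted P = 0.0165) and 1.05 in the double mutant (interaction 3.46, adjusted P = 0.0476). *hsp-16.2* in *hlh-30* differed in the same way (interaction 3.89, adjusted P = 0.0188). In the *hlh-30* comparison, the interaction was also among the lowest P values above 0 for *F44E5.4* (4.01, adjusted P = 0.00616) and *F44E5.5* (3.82, adjusted P = 0.00668), and below 0 for *clec-52* (-0.83, adjusted P = 0.00316), *ilys-3* (-3.49, adjusted P = 0.0216) and *F59B1.2* (-0.58, adjusted P = 0.0216). *hsp-70* had log2 fold changes of -3.26 in *pgph-2 o/e* (interaction -1.58, adjusted P = 0.0321), 1.58 in *hlh-30* (interaction 3.23, adjusted P = 0.0165) and 1.15 in the double mutant (interaction 2.83, adjusted P = 0.00578). In the double mutant, the log2 fold change of *dhs-8* was -0.38 (interaction 2.195, adjusted P = 0.00409), that of *irg-5* -0.11 (interaction 1.63, adjusted P = 0.00208) and that of *cyp-35A1* -1.603 (interaction -3.46, adjusted P = 0.00637). In *pgph-2 o/e*, *folt-2*, of a folate transporter, which fell in WT (-1.17, adjusted P = 0.000705), had a log2 fold change of 0.43 (interaction 1.595, adjusted P = 4.15e-06), *F58B4.5* of -0.52 (interaction 1.296, adjusted P = 3.70e-05) and *B0024.4* of 0.47 (interaction 2.86, adjusted P = 5.42e-05). Each interaction fit was repeated with each of its 16 libraries left out. That of *hsp-16.41* in the double mutant passed in 3 of the 16 repeats and in *hlh-30* in 15. In *hlh-30*, *F59B1.2* passed in 9, *ilys-3* in 10 and *hsp-16.2* in 14, and *hsp-70* in *pgph-2 o/e* passed in 9. The other interactions of this paragraph passed in all 16.

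**Figure D5:**
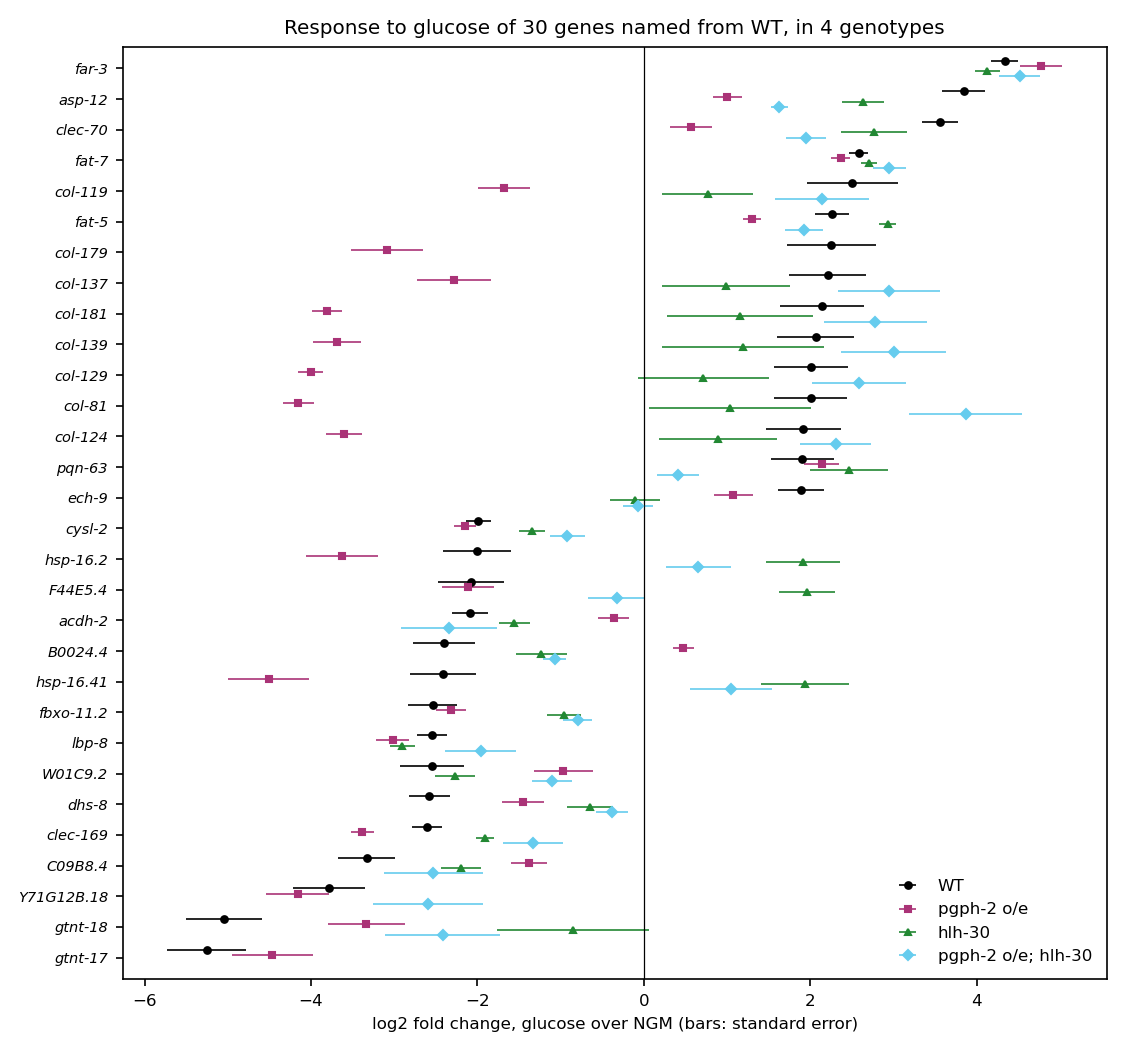
Log2 fold change on glucose against NGM of named genes in WT and in the other 3 genotypes (horizontal axis), with bars for the standard error of edgeR's fit to 4 libraries on each medium. *far-3* and *fat-7* rise in all 4 genotypes, and *hsp-16.41* ranges from -4.51 in pgph-2 o/e to 1.94 in hlh-30.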

How the data were processed

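RNA-seq was performed on whole WT (N2 Bristol) animals from 2 media, plain NGM and NGM containing 2% glucose (4 libraries per medium). Poly-T beads were used by the authors to enrich mRNA. Paired-end reads were aligned by Hisat2, and featureCounts 1.5.0-p3 gave the number of reads of each gene (per the submitters' processing notes, with WBcel235 as the genome build). The deposited values are these raw counts for 46589 genes, without normalization. The strand setting and the treatment of reads that match several genes are not given in the sources used here, so that overlapping genes and near copies are uncertain. The study's methods call the libraries of a condition biological replicates, the labels number them, and neither says whether they came from separate cultures. P values measure the spread between these samples. Of the gene identifiers, 45305 were matched to RefSeq names, 21 to the Ensembl annotation only and 1263 to none, and 7 names of the gene lists were not found. Positions are those of the deposited table.

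The analysis used edgeR 4.0.16 under R 4.3.3: filterByExpr (minimum count 10, minimum total 15), TMM, glmQLFit and glmQLFTest on the 8 libraries, with Benjamini-Hochberg adjustment over all genes tested. CPM are counts scaled to the TMM-adjusted library size, and FPKM divide them by the gene length of the table. A gene is said to have risen or fallen where its adjusted P was 0.05 or less, and to be upregulated or downregulated where its log2 fold change was also 1 or more in size. Interactions of genotype and medium were fitted to 16 libraries each. The test was run on simulated data with 200 changed genes before use. Alternatives were DESeq2 1.42.0, its size factors, no filter, at least 10 counts in every library, a replicate block, the mean sperm level as a covariate, all 32 libraries in one fit and each library left out. A fit with glucose replicates 2 and 4 both omitted was added after the values were seen.

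The rule for named genes takes the 15 highest rises and 15 largest falls among called genes whose higher group averaged 5 CPM or more and did not overlap the other, up to 6 members of each of 49 lists with the lowest adjusted P, genes the study manipulates, and 3 genes with the lowest interaction P in each direction and genotype. Members and lists were chosen with earlier results of these data known. The HIF-1 target genes, *far-7*, *spp-9*, *lipl-3*, *gcs-1*, *gst-4*, *fat-6*, *vit-2*, *vit-5*, *gpdh-1*, *hach-1*, *fmo-2* and the genes of the other observations were added after their values were seen. Gene and promoter sequences were not analysed here. Total counts of 18073309 to 25673318 per library limit the precision of genes with few counts.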

Additional observations from a re-analysis of the deposited data

Results flagged for a closer look

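For each gene given with values, the 4 libraries of a medium were searched for 1 that stood far from the rest by Dixon's criterion. Chance gives this in about 1 in 20 groups, and 338 groups were searched. On NGM, replicate 1 was the highest in *fat-5* (33.6 CPM) and the lowest in *dpy-17* (31.1 CPM), *dop-4* (2.54 CPM), *gcs-1* (95.8 CPM) and *pck-2* (791 CPM). NGM replicate 3 was the highest in *hsp-70* (104 CPM) and *tps-1* (62.9 CPM), and NGM replicate 2 in *hmit-1.2* (17.7 CPM). On glucose, replicate 1 was the highest in *elo-6* (346 CPM) and the lowest in *F22B5.4* (2.77 CPM), and replicate 2 was the highest in *hmit-1.1* (37.2 CPM) and the lowest in *atgl-1* (54.2 CPM). Glucose replicate 3 was the highest in *lys-1* (275 CPM) and the lowest in *pgp-1* (50.1 CPM), and replicate 4 was the highest in *gpdh-3* (137 CPM) and the lowest in *nspc-12* (2.82 CPM).

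The change on glucose differed between WT and another genotype in the interaction test of edgeR for the following genes, given as the log2 fold change in the other genotype minus that in WT. For *pgph-2 o/e*, it was above 0 for *B0024.4* (2.86), *folt-2* (1.595), *F58B4.5* (1.296) and *dhs-8* (1.12). It was below 0 for the collagens *col-81* (-6.17), *col-129* (-6.02) and *col-124* (-5.53), and for *asp-12* (-2.85), *hsp-16.41* (-2.103), *cyp-35A1* (-1.605), *hsp-70* (-1.58), *clec-52* (-1.301), *fat-5* (-0.96) and *F59B1.2* (-0.56). With the sperm level as a covariate, 0 of 15816 genes passed this interaction, so that all of these calls were lost. At an unadjusted P under 0.05 there were 846, close to the 1 in 20 that chance alone gives. Not all of the estimates shrank in that fit, and a lost call there does not show that a difference is absent. For *hlh-30*, it was above 0 for *hsp-16.41* (4.32), *F44E5.4* (4.01), *hsp-16.2* (3.89), *F44E5.5* (3.82), *hsp-70* (3.23), *dhs-8* (1.90) and *irg-5* (0.82), and below 0 for *ilys-3* (-3.49), *clec-52* (-0.83) and *F59B1.2* (-0.58). For *pgph-2 o/e; hlh-30*, it was above 0 for *hsp-16.41* (3.46), *hsp-70* (2.83), *dhs-8* (2.195) and *irg-5* (1.63). It was below 0 for *cyp-35A1* (-3.46), *asp-12* (-2.22), *pgph-2* (-1.45), *F59B1.2* (-0.76), *clec-52* (-0.70) and *gpdh-2* (-0.65). In WT, NGM replicate 3 had the highest level in 13 of the 21 heat shock genes, and the collagens were highest in glucose replicates 2 and 4. With the covariate, the calls of *ilys-3*, *irg-5* and *F59B1.2* in *hlh-30* and of *hsp-16.41* and *gpdh-2* in *pgph-2 o/e; hlh-30* were also lost. The part of these libraries in the differences was not tested. With each of the 16 libraries of a fit left out in turn, some interactions passed in few fits. In *hlh-30*, these were *irg-5* (3 of 16), *dhs-8* (5), *F59B1.2* (9) and *ilys-3* (10). In *pgph-2 o/e; hlh-30*, they were *hsp-16.41* (3) and *gpdh-2* (7), and in *pgph-2 o/e* *hsp-70* (9). The others passed in 14 to 16 fits.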

How the results depend on the processing

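The direction of all 180 genes called in WT was the same under every alternative in which they were tested, while the number of calls depended on the tool, the filter and the libraries. Genes that rose, fell, were upregulated and were downregulated numbered 181, 370, 91 and 89. DESeq2 gave 780, 825, 263 and 128, the fit of all 32 libraries 422, 731, 219 and 136, and the test without a filter on low counts 277, 406, 159 and 96. With the sperm level as a covariate they were 187, 208, 52 and 52, and with glucose replicates 2 and 4 both omitted, chosen after seeing the data, 47, 99, 28 and 38. Leaving out 1 library gave 63 to 827, 158 to 817, 38 to 288 and 54 to 154. The size factors of DESeq2 and a minimum of 10 counts in every library changed no count by over 1.5 times. With a block for the replicate number, the counts were 27, 85, 21 and 41. Same-numbered libraries did not deviate together (correlations of -0.41, -0.14, 0.0095 and -0.21). Whether they share a culture or batch is not given in the sources used here, and so few pairs cannot settle it. Of 166 genes followed through the alternatives, 149 passed, 88 of them in every fit with 1 library left out and 50 under every alternative.

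Interactions above and below 0 were 992 and 2239 genes for *pgph-2 o/e*, and 833 to 1098 and 2098 to 2397 with 1 library left out. They were 0 and 0 with the sperm level as a covariate. In that fit 846 of 15816 genes had an unadjusted P under 0.05, close to the 1 in 20 that chance alone gives. For *hlh-30* they were 45 and 38, with 145 and 382 in DESeq2, 25 and 12 without a filter, 17 below 0 with at least 10 counts in every library, 23 and 7 with the replicate block, 18 and 1 with the sperm covariate, 132 and 279 with all 32 libraries, and 9 to 240 and 1 to 1419 with 1 library left out. For the double mutant they were 13 and 9, with 39 and 37 in DESeq2, 21 above 0 without a filter, 27 above 0 with the sperm covariate, 20 above 0 with all 32 libraries, and 10 to 25 and 6 to 23 with 1 library left out. The cause of these differences was not tested. The log2 fold change of *vit-2* was 0.59 (adjusted P = 0.454 in edgeR) and -0.96 with the sperm covariate (adjusted P = 0.0419). Genes with few counts, such as *spp-9* with at most 2 counts in each NGM library, are measured with less precision, and a change that did not pass may still be present.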

Other observations

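Genes outside the lists described above also changed, and the ones given here were chosen after their values were seen. *pgp-1*, of a P-glycoprotein transporter, was at 173, 183, 183 and 205 CPM on NGM and 68.01, 69.5, 50.1 and 69.3 CPM on glucose (log2 fold change -1.53, standard error 0.11, adjusted P = 9.19e-05). *folt-2*, the folate transporter gene of which the other genotypes are given above, was at 532, 588, 672 and 746 and 315, 245, 299 and 268 CPM. *rhr-1*, of an ammonium transporter of the Rhesus family, was at 126, 172, 161 and 199.9 and 85.8, 58.4, 73.0 and 60.1 CPM (log2 fold change -1.25, standard error 0.16, adjusted P = 0.00233). All 3 transporter genes were lower in each glucose library than in any NGM library. *rips-1*, which encodes a methyltransferase known to respond to hydrogen sulfide and hydrogen cyanide, was at 225, 255, 245 and 284 CPM on NGM and 123, 86.6, 111 and 97.9 CPM on glucose (log2 fold change -1.27, standard error 0.11, adjusted P = 0.000397). The nitrilase gene *nit-1* was at 11.2, 12.5, 13.4 and 11.8 and 3.97, 3.14, 3.65 and 3.14 CPM (log2 fold change -1.82, standard error 0.14, adjusted P = 0.000139). The short-chain dehydrogenase gene *dhs-25* was at 223, 274, 271 and 310.0 and 123, 77.4, 131 and 92.8 CPM (log2 fold change -1.34, standard error 0.17, adjusted P = 0.00220). No glucose library reached the lowest NGM library in these genes.

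Among genes that rose, the neuropeptide gene *flp-34* was at 5.33, 4.21, 3.84 and 3.69 CPM on NGM and 9.08, 10.8, 9.79 and 11.2 CPM on glucose (log2 fold change 1.26, standard error 0.16, adjusted P = 0.00233), and the dopamine receptor gene *dop-4* at 2.54, 3.89, 3.76 and 3.74 and 10.3, 8.08, 7.73 and 8.35 CPM (log2 fold change 1.31, standard error 0.18, adjusted P = 0.00397). A second linker histone gene, *hil-3*, was at 17.4, 11.7, 15.8 and 13.8 and 26.1, 43.9, 41.6 and 38.7 CPM (log2 fold change 1.35, standard error 0.17, adjusted P = 0.00266). Of the *nspc* genes, which encode small secreted peptides, *nspc-12* had the highest rise, at 0.0404, 0.362, 0.364 and 0.461 CPM on NGM and 5.53, 5.77, 5.61 and 2.82 CPM on glucose (log2 fold change 4.03, standard error 0.46, adjusted P = 0.00158), and its neighbour on chromosome X, *nspc-13*, rose by 1.73 (adjusted P = 0.0267). *nspc-13* passed in 3 of the 8 fits with 1 library left out, and the other genes of this paragraph in all 8. The genes of this family are alike, so that reads may be shared between them.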
